A study of Bos taurus with 15 samples.

Results

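The genes described here are the 55 interleukins, interleukin receptors and natural inhibitors whose symbol is IL followed by a digit, out of 13896 genes listed in all 6 comparison tables of a study of subcutaneous adipose tissue of the dewlap in Prim Holstein cows. They comprised 27 ligands, 24 receptor subunits and 4 antagonists or decoys. RNA was sequenced in 15 libraries, 3 in each of 5 groups of primiparous cows. The -4 wkpp group (weeks peripartum) was sampled about 1 month before calving, before any diet was given. From about 1 month before calving the cows received either a low or a high energy diet, and the groups sampled at 1 and 16 wkpp are those the labels place on these diets. The names severe (SNEB, low energy diet) and moderate negative energy balance (MNEB, high energy diet) follow the study, which set them by the energy balance measured at 1 wkpp. The study took the 3 cows of each group with the most extreme energy balance and biopsied the same animals at different times, so a group stands for selected cows and not for the diet in general. The -4 wkpp libraries are those of cows before either diet, and they served as the common reference of both NEB groups.

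Interleukins are secreted proteins through which immune, stromal and endothelial cells signal to each other. Most bind receptors assembled from several subunits, some of which are shared. Receptors of the IL-1 family, which bind IL-1, IL-18 and IL-33, signal through MYD88 and IRAK kinases, whereas most other interleukin receptors signal through JAK kinases and STAT factors and are restrained by SOCS proteins. In adipose tissue IL-33 from stromal cells, and IL-4 and IL-13 from lymphocytes and granulocytes, are known for maintaining type 2 immune cells, and IL-1 and IL-6 for inflammation.

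All values below are reads per library, read once on exons and once on the entire gene (exons plus introns) and divided by the size factor of the library. Reads are not divided by gene length, so the read numbers of different genes are not compared as expression levels. The replicates of a group are numbered by falling depth, because the deposited tables do not tie a library to a cow. In bulk tissue, fewer cells of a type and less RNA per cell cannot be told apart. A gene was called when its adjusted p-value (limma, Benjamini-Hochberg over all genes tested) was below 0.01 in both the exonic and the entire gene analysis with the same direction.

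Some libraries stood apart before any comparison. The exonic reads on genes were 7640713 to 13272898 in the -4 wkpp libraries and 10967878 to 14444098 in the SNEB libraries. In contrast, 2 of the 3 MNEB libraries at each time point were shallow, and the MNEB range was 2089516 to 7247935 at 1 wkpp and 2889126 to 7689595 at 16 wkpp. Synthetic spike-in RNAs took 42.0% to 50.4% of exonic reads in MNEB at 1 wkpp and 26.0% to 33.5% at 16 wkpp, against 2.02% to 6.57% in the other libraries. The share of aligned reads that the study reported was also lower in every MNEB library. In comparisons of MNEB with another group, NEB group, diet and library quality cannot be told apart. Replicates 2 and 3 of MNEB at 1 wkpp also held many reads inside genes that other libraries hardly read, as described below for the members with few reads. Adipocyte markers were read in every library, and are described below with the markers of other cells.

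Receptor subunits were read far more than ligands. The mean exonic reads per library reached 10 for 19 of 24 receptor subunits, 9 of 27 ligands and 2 of 4 antagonists or decoys, and 100 for 12 receptor subunits and 4 ligands. The median over the receptor subunits was 96.9 reads, and that over the ligands was 3.03 reads. IL13RA1, a subunit that binds IL-13 and pairs with IL4R, had the highest mean (3185 reads), followed by the receptors IL1R1 (987 reads), IL4R (943 reads) and IL6R (778 reads), the ligand IL33 (750 reads) and the receptor IL27RA (555 reads). The spread over the 15 libraries was larger than the gaps between IL1R1 and IL4R, and between IL6R and IL33, with SDs of 218, 192, 281 and 193 reads. The other ligands with 100 reads or more were IL16, which binds CD4 (352 reads), IL34, a ligand of the macrophage receptor CSF1R (213 reads), and IL18 (106 reads). IL6, a well known adipose cytokine, had a mean of 2.65 exonic reads per library, and IL1B had 17.4. The type 2 ligands IL4, IL5 and IL13 each had means below 1 read. IL29, a lambda interferon, had 0 reads in the 15 libraries together, which allows up to 3 reads and covers counting error only.

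**Figure D1:**
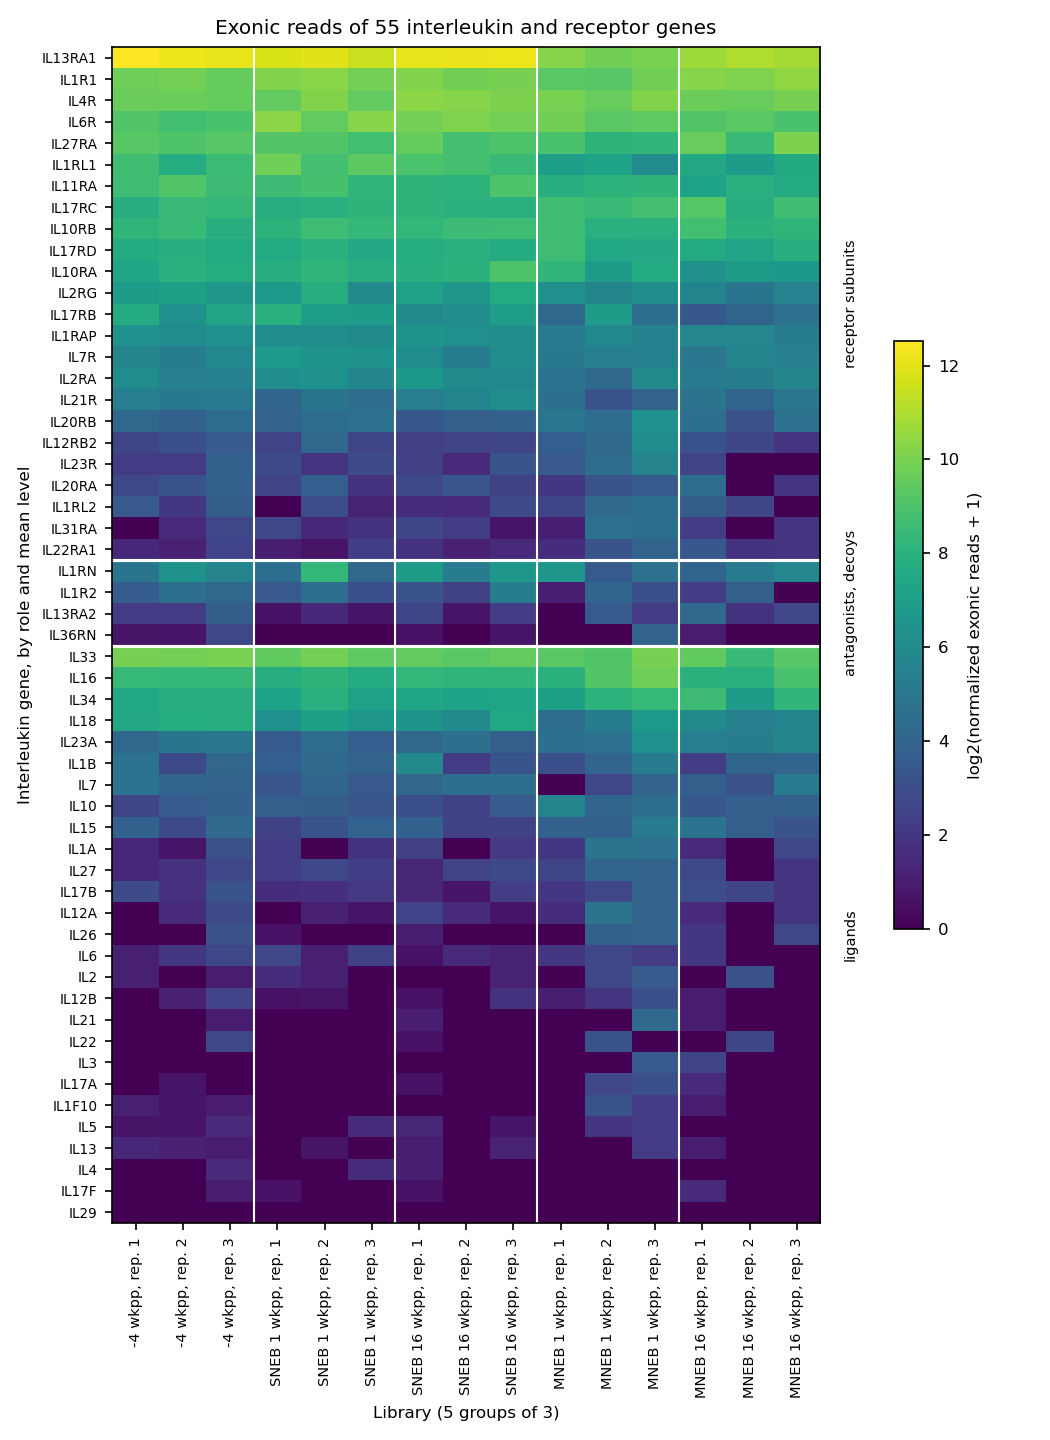
Exonic reads of the 55 members (rows, grouped by role and ordered by mean) in the 15 libraries (columns), as log2 of normalized reads plus 1. Receptor subunits such as IL13RA1 fill the upper part, most ligands are near 0, and IL13RA1 is darker in the 6 MNEB libraries than in the other 9.

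Of the 55 members, 24 to 31 had enough reads to be tested in a comparison (a mean of at least 10 normalized reads over its 6 libraries in both analyses). Between -4 wkpp and MNEB at 1 wkpp, 2 of 31 members tested (6.45%) were called, IL13RA1 and IL18, both higher at -4 wkpp. Among all 10404 genes tested, 1.72% were called, and 0.99% were called as higher at -4 wkpp. Between SNEB and MNEB at 16 wkpp, 1 of 28 members (3.57%) was called, IL1RL1, which was higher in SNEB. Of all 10150 genes tested there, 3.66% were called, and 1.07% were called as higher in SNEB, so the members' share was close to that of all genes.

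No member was called in the other 4 comparisons. From -4 wkpp to SNEB at 1 wkpp, 0 of 31 members were called (0.0378% of all genes), 6 members (19.4%, all genes 14.6%) had an unadjusted exonic p-value below 0.05, and limma-trend called 0. From MNEB at 1 wkpp to MNEB at 16 wkpp, 0 of 24 members were called (0% of all genes), with 4 below an unadjusted 0.05 (16.7%, all genes 13.5%) and 0 by limma-trend. These 4 include IL10, which reached the minimum of reads only through MNEB at 1 wkpp, where it was high. From SNEB at 1 wkpp to SNEB at 16 wkpp, 0 of 31 members were called (0% of all genes), with 5 below an unadjusted 0.05 (16.1%, all genes 7.17%) and 0 by limma-trend. Between SNEB and MNEB at 1 wkpp, 0 of 29 members were called (0% of all genes), with 10 below an unadjusted 0.05 (34.5%, all genes 32.3%) and 0 by limma-trend.

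The median exonic log2 fold change of the members tested was 0.60 for SNEB over MNEB at 16 wkpp, beside 0.04 over all genes tested, and 20 of the 28 members had a positive value. By role, 14 of 18 receptor subunits and 4 of 8 ligands had a positive value there, with medians of 0.75 and 0.17. At 1 wkpp the median for SNEB over MNEB was 0.23, beside 0.07 for all genes. It was 0.12 beside 0.05 for -4 wkpp over MNEB at 1 wkpp, 0.07 beside -0.03 for -4 wkpp over SNEB at 1 wkpp, 0.07 beside -0.01 for MNEB at 1 over 16 wkpp, and -0.06 beside -0.01 for SNEB at 1 over 16 wkpp. A member could reach the minimum of reads through 1 of the groups alone, which favours a difference in that direction. This held for 5 members between -4 wkpp and MNEB at 1 wkpp, for 3 between MNEB at 1 and 16 wkpp, for 1 between SNEB at 1 and 16 wkpp, for 3 between SNEB and MNEB at 1 wkpp and for 2 at 16 wkpp. Without them the median was 0.60 at 16 wkpp and 0.25 at 1 wkpp for SNEB over MNEB, 0.21 for -4 wkpp over MNEB at 1 wkpp, -0.02 for MNEB and -0.06 for SNEB at 1 over 16 wkpp.

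Overlap was counted on exonic reads divided by the size factors of the 6 libraries compared, as in the tests. The 3 libraries of one group did not overlap the 3 of the other for 14 of 31 members (45.2%) between -4 wkpp and MNEB at 1 wkpp, where 46.8% of all genes tested did not overlap. The same held for 8 of 31 members (25.8%, all genes 19.8%) between -4 wkpp and SNEB at 1 wkpp. For the change from 1 to 16 wkpp it held for 5 of 24 members in MNEB (20.8%, all genes 20.2%) and for 7 of 31 members in SNEB (22.6%, all genes 11.9%). Between SNEB and MNEB it held for 11 of 29 members at 1 wkpp (37.9%, all genes 39.9%) and 13 of 28 at 16 wkpp (46.4%, all genes 44.2%). Of these 13, IL23A was lower in SNEB and the other 12 were higher, among them 11 receptor subunits and the ligand IL18. This split by direction was not counted over all genes, so it is not read as particular to the members. Some of the members counted reached the minimum through 1 group alone, where the filter favoured their separation. These were IL10, IL12RB2 and IL7 in the first comparison, IL10 over time in MNEB, and IL23R between SNEB and MNEB at 1 wkpp. With the size factors of all 15 libraries, which scale the values given for each gene, the counts were 13 in the first comparison, where IL33 overlapped, and 6 over time in SNEB, where IL1RAP overlapped, and the other 4 counts were the same.

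**Figure D2:**
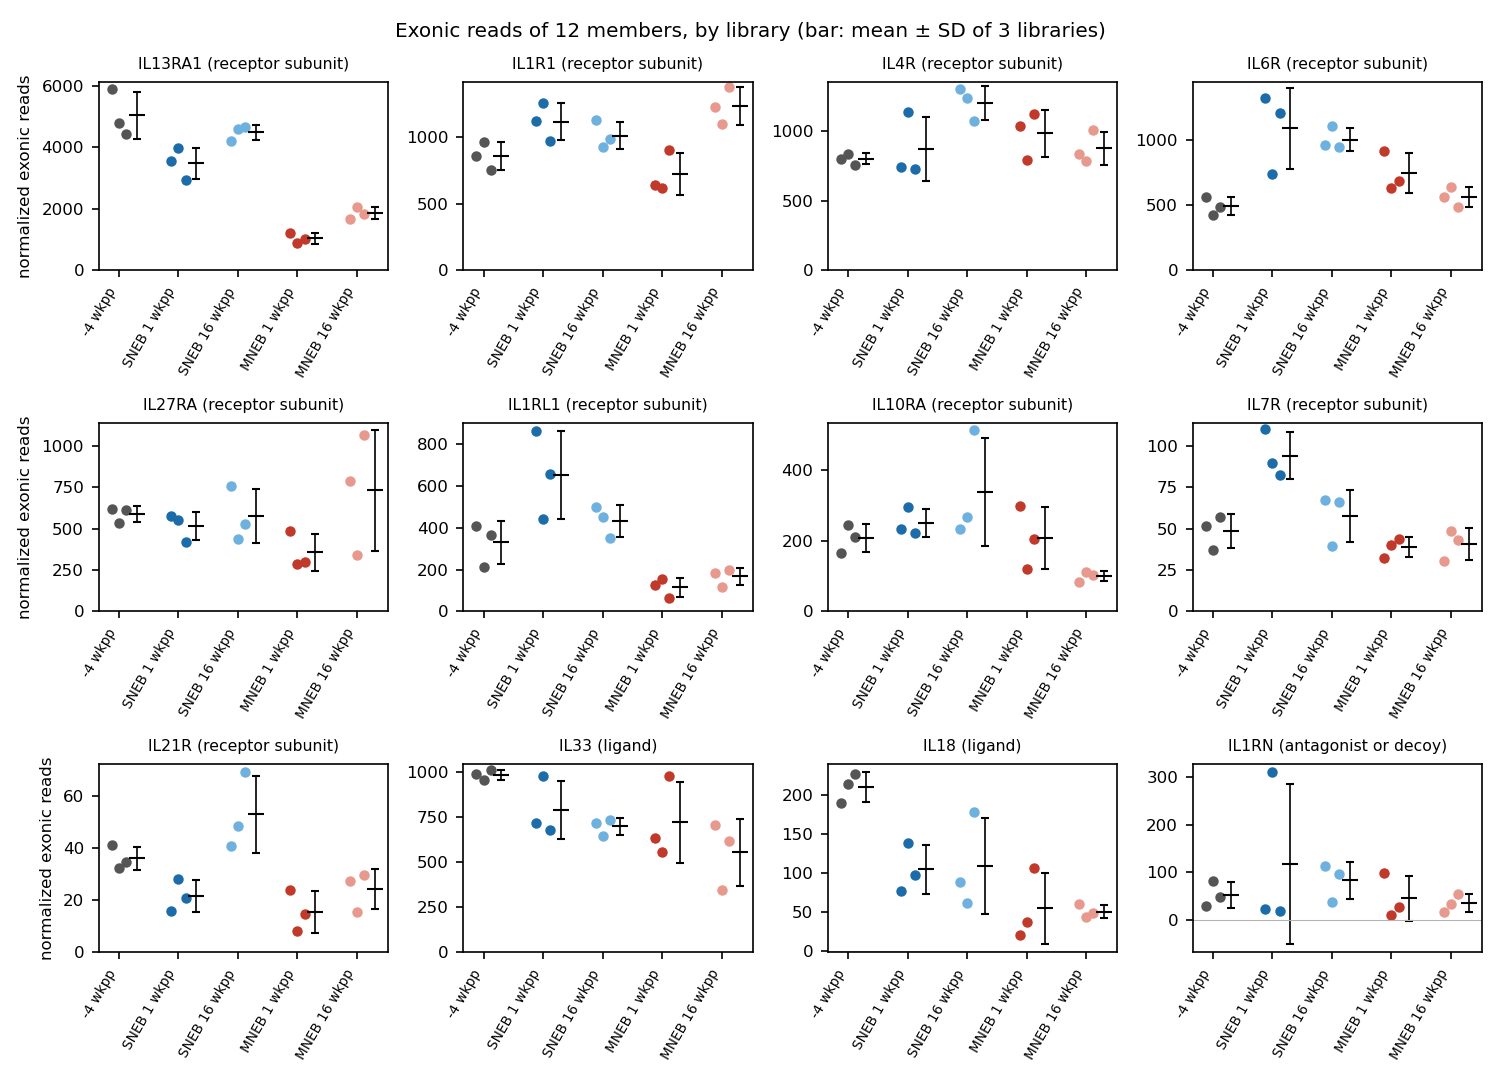
Normalized exonic reads of the 12 members named in full, 1 point per library, with the mean and SD of the 3 libraries of each group. IL13RA1 and IL1RL1 lie lower in both MNEB groups than in the other 3 groups, and the points of IL27RA and IL1RN spread widely within groups.

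IL13RA1 carried the clearest difference between the groups. Its exonic reads were 5894, 4786 and 4443 in the -4 wkpp libraries. They were 3544, 3969 and 2956 in SNEB at 1 wkpp and 4210, 4587 and 4672 in SNEB at 16 wkpp. The MNEB values were 1216, 890 and 1018 at 1 wkpp and 1678, 2075 and 1836 at 16 wkpp. All 6 MNEB libraries were thus below all 9 others, and the 3 MNEB libraries at 1 wkpp were below the 3 at 16 wkpp. These 6 are also the libraries with the high spike-in share, so NEB group and library quality cannot be told apart here. Between -4 wkpp and MNEB at 1 wkpp the exonic log2 fold change was 2.28 (SE 0.22, 95% confidence interval 1.79 to 2.77, adjusted p = 0.000154), a fold of 4.85, and that of the entire gene was 1.78 (adjusted p = 0.00847). Leaving out any of the -4 wkpp libraries, or replicate 2 or 3 of MNEB at 1 wkpp, took the entire gene adjusted p-value above the threshold, to between 0.0230 and 0.0635, while the exonic one was at most 0.00122. Without both replicates 2 and 3 of MNEB at 1 wkpp the exonic log2 fold change was 2.02 (adjusted p = 0.00465) and the entire gene adjusted p-value was 0.0578.

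IL13RA1 also differed between SNEB and MNEB on exons, without passing in both analyses. At 1 wkpp the exonic log2 fold change was 1.75 (SE 0.22, adjusted p = 0.00709) and the entire gene adjusted p-value was 0.0465. At 16 wkpp the exonic log2 fold change was 1.27 (SE 0.17, adjusted p = 0.00153) and the entire gene adjusted p-value was 0.0119. In a fit of all 15 libraries together both comparisons passed in both analyses, with entire gene adjusted p-values of 0.00173 at 1 wkpp and 0.00403 at 16 wkpp. That fit took repeated biopsies of the same animals as independent libraries. For MNEB at 1 over 16 wkpp the exonic log2 fold change was -0.86 (SE 0.21, adjusted p = 0.234), lower at 1 wkpp. For -4 wkpp over SNEB at 1 wkpp the value was 0.53 (SE 0.19, adjusted p = 0.243), higher at -4 wkpp.

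IL4R, the chain that IL-4 and IL-13 receptors have in common, was not called in any comparison. Its exonic reads were 799, 836 and 757 at -4 wkpp, 741, 1132 and 726 in SNEB at 1 wkpp, and 1298, 1230 and 1065 in SNEB at 16 wkpp. In MNEB they were 1031, 793 and 1120 at 1 wkpp and 831, 780 and 1007 at 16 wkpp. The MNEB libraries at 1 wkpp overlapped those at -4 wkpp, while the SNEB libraries at 16 wkpp were all above the MNEB libraries at 16 wkpp. For SNEB over MNEB at 16 wkpp the exonic log2 fold change was 0.47 (SE 0.17, adjusted p = 0.0739), and that of the entire gene was 0.42 (adjusted p = 0.116). For SNEB at 1 over 16 wkpp the exonic log2 fold change was -0.51 (SE 0.20, adjusted p = 0.682), lower at 1 wkpp. There 1 SNEB library at 1 wkpp lay within the range of the 16 wkpp libraries. The decoy receptor IL13RA2, which binds IL-13 and is known to withhold it from signalling, had a mean of 4.85 exonic reads per library and was not tested on exons.

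IL1RL1, also known as ST2, is the receptor that binds IL-33 and is known from mast cells, regulatory T cells and type 2 lymphoid cells. Its exonic reads were 410, 212 and 366 at -4 wkpp. They were 859, 439 and 656 in SNEB at 1 wkpp and 500, 449 and 348 in SNEB at 16 wkpp. The MNEB libraries had 126, 153 and 65.9 at 1 wkpp, from 121, 57 and 18 reads before normalization, and 186, 118 and 197 at 16 wkpp. Every MNEB library was lower than every other library, and here too NEB group and library quality cannot be told apart. At 16 wkpp the exonic log2 fold change of SNEB over MNEB was 1.34 (SE 0.25, 95% confidence interval 0.78 to 1.90, adjusted p = 0.00562), a fold of 2.54, and that of the entire gene was 1.56 (adjusted p = 0.00881). This call was lost when any 1 of the 6 libraries was left out, with an entire gene adjusted p-value between 0.0131 and 0.0443. In the fit of all 15 libraries it was lost too, with adjusted p-values of 0.0137 and 0.0169.

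At 1 wkpp the difference in IL1RL1 between SNEB and MNEB was larger in size, with an exonic log2 fold change of 2.43 (SE 0.40, adjusted p = 0.00985), but the entire gene adjusted p-value of 0.0538 did not pass. Without replicates 2 and 3 of MNEB the exonic value was 2.31 (adjusted p = 0.158), and that of IL13RA1 was 1.51 (adjusted p = 0.158). The fit of all 15 libraries called IL1RL1 at 1 wkpp, with adjusted p-values of 0.000749 on exons and 0.00331 on the entire gene. From -4 wkpp to MNEB at 1 wkpp the exonic log2 fold change was 1.43 (SE 0.38, adjusted p = 0.0178), higher at -4 wkpp. From -4 wkpp to SNEB at 1 wkpp the gene was 1.99-fold lower at -4 wkpp on exons (adjusted p = 0.193). In another assembly of the cattle genome (ARS-UCD2.0) IL1RL1 overlaps IL18R1. Whether reads of IL1RL1 were lost or shared there in the counting is not known.

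IL33, the ligand of IL1RL1, had exonic reads of 986, 957 and 1012 at -4 wkpp, 714, 976 and 679 in SNEB at 1 wkpp, and 719, 642 and 732 in SNEB at 16 wkpp. In MNEB it had 631, 557 and 977 at 1 wkpp and 704, 346 and 616 at 16 wkpp. The groups after calving overlapped each other, and no comparison called IL33. Its exonic and entire gene values differed in sign in each comparison of MNEB with another group. For SNEB over MNEB at 1 wkpp the exonic log2 fold change was 0.19 (95% confidence interval -0.39 to 0.77), and that of the entire gene was -0.62 (-1.20 to -0.03, adjusted p = 0.234). The pair of values was 0.52 and -0.48 for -4 wkpp over MNEB at 1 wkpp and 0.35 and -0.47 for SNEB over MNEB at 16 wkpp. IL1RAP, the accessory chain that IL-33 and IL-1 receptors share, had 33.3 to 88.5 exonic reads and was not called in any comparison.

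IL18 is made as a precursor that caspase-1 cleaves, and is known as an inducer of interferon gamma. Its exonic reads were 189, 214 and 226 at -4 wkpp. They were 77.4, 138 and 98.1 in SNEB at 1 wkpp and 88.0, 61.4 and 178 in SNEB at 16 wkpp. MNEB libraries had 20.8, 37.7 and 106 at 1 wkpp, from 20, 14 and 29 reads before normalization, and 60.6, 43.6 and 48.6 at 16 wkpp. All 12 libraries after calving lay below the 3 taken before it. Between -4 wkpp and MNEB at 1 wkpp the exonic log2 fold change was 2.64 (SE 0.45, 95% confidence interval 1.63 to 3.66, adjusted p = 0.00210), a fold of 6.25, and that of the entire gene was 2.43 (adjusted p = 0.00847). Leaving out any single 1 of the 6 libraries ended the call, with an entire gene adjusted p-value between 0.0118 and 0.0621, and without replicate 1 of MNEB at 1 wkpp the log2 fold change was 1.81. Without both replicates 2 and 3 of that group it was 3.27, with adjusted p-values of 0.00976 on exons and 0.0333 on the entire gene.

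Between -4 wkpp and SNEB at 1 wkpp the exonic log2 fold change of IL18 was 1.03 (SE 0.24, adjusted p = 0.0811), and that of the entire gene was 0.87 (adjusted p = 0.0945). Both comparisons use the same -4 wkpp libraries. Most of the reads of IL18, 88.1% over the 15 libraries, lay outside its exons. The share was 47.1% for the median of all genes and 64.6% for the median of the members with reads.

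**Figure D3:**
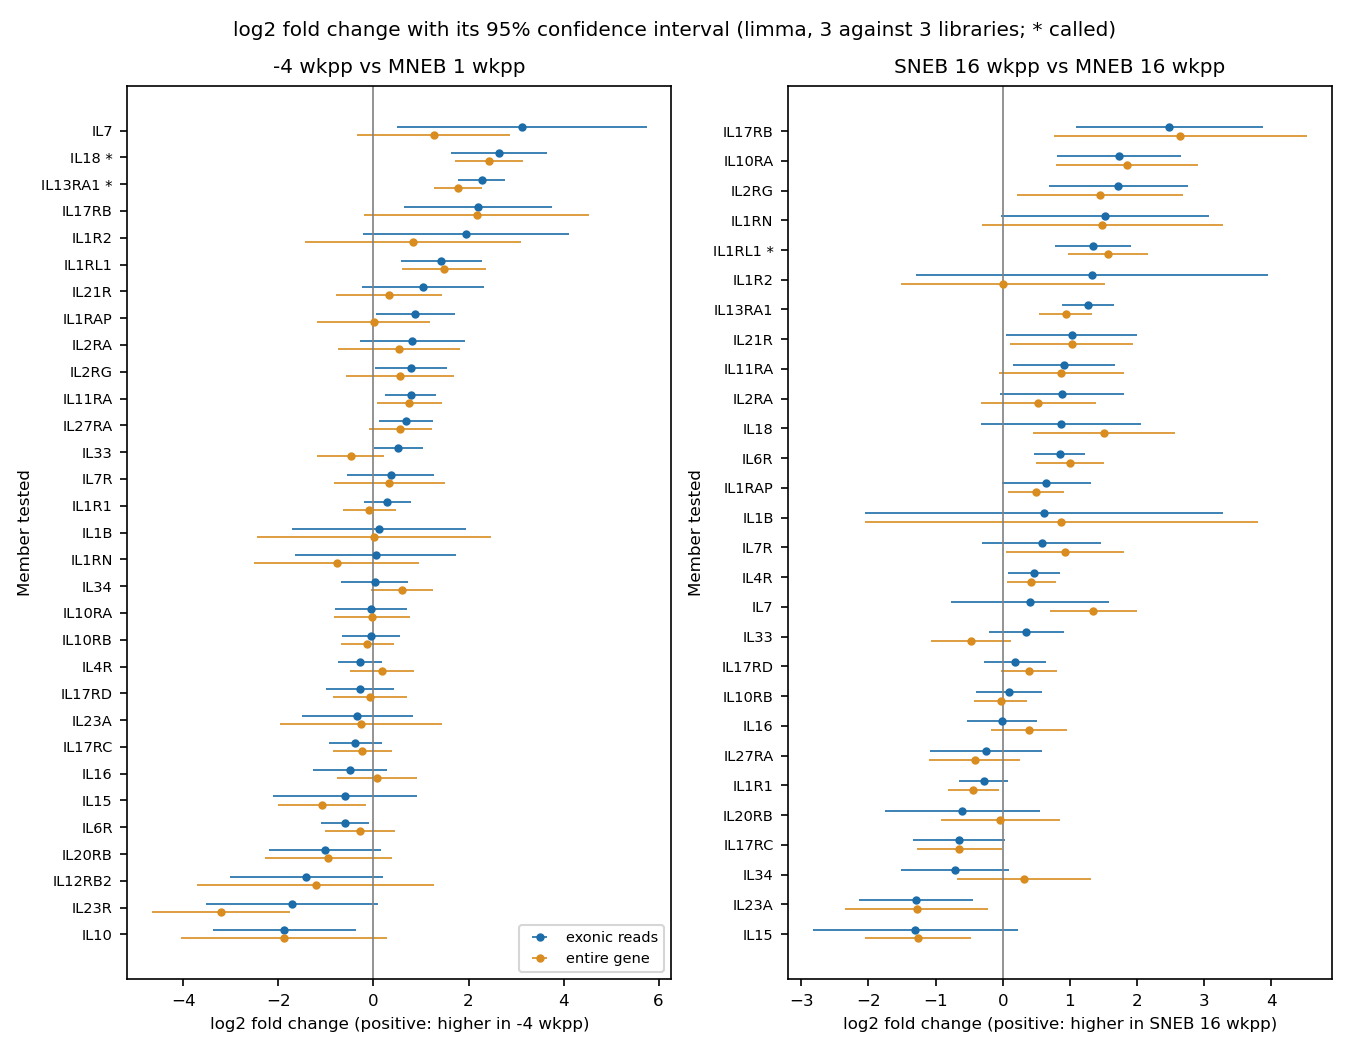
Fitted log2 fold change with its 95% confidence interval for each member tested between -4 wkpp and MNEB at 1 wkpp (left) and between SNEB and MNEB at 16 wkpp (right), on exons and on the entire gene. Stars mark the called members IL18, IL13RA1 and IL1RL1, and most other intervals of members with few reads reach or cross 0.

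IL1R1 is the signalling receptor of IL-1. Exonic reads of IL1R1 were 861, 965 and 751 at -4 wkpp, 1121, 1251 and 970 in SNEB at 1 wkpp, and 1125, 924 and 981 in SNEB at 16 wkpp. Those of MNEB were 638, 621 and 901 at 1 wkpp and 1221, 1095 and 1375 at 16 wkpp. The MNEB libraries at 1 wkpp were below those at 16 wkpp, with an exonic log2 fold change of -0.80 (SE 0.22, adjusted p = 0.236). IL1RN, the natural antagonist of this receptor, ranged from 10.8 to 311 reads, and 1 library decided its mean in SNEB at 1 wkpp. Its reads were 28.3, 81.4 and 47.7 at -4 wkpp, 22.2, 311 and 17.7 in SNEB at 1 wkpp, 113, 37.4 and 97.0 in SNEB at 16 wkpp, 98.8, 10.8 and 25.6 in MNEB at 1 wkpp, and 15.6, 33.3 and 54.0 in MNEB at 16 wkpp. The groups of IL1RN overlapped in each comparison.

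IL6R binds IL-6 and pairs with the signalling chain IL6ST, which also serves the IL-11 receptor and the IL-27 receptor. The exonic reads of IL6R were 562, 424 and 490 at -4 wkpp, 1323, 737 and 1207 in SNEB at 1 wkpp, and 958, 1105 and 945 in SNEB at 16 wkpp. In MNEB they were 918, 635 and 688 at 1 wkpp and 561, 636 and 483 at 16 wkpp. Both groups at 1 wkpp lay above the 3 libraries taken before calving, and the SNEB libraries at 16 wkpp were above the MNEB libraries at 16 wkpp. For SNEB over MNEB at 16 wkpp the exonic log2 fold change was 0.85 (SE 0.17, adjusted p = 0.00804) and the entire gene adjusted p-value of 0.0223 did not pass. For -4 wkpp over SNEB at 1 wkpp the exonic log2 fold change was -1.11 (SE 0.25, adjusted p = 0.0686).

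The IL-27 receptor chain IL27RA had exonic reads of 617, 534 and 615 at -4 wkpp, 576, 556 and 418 in SNEB at 1 wkpp, 758, 440 and 529 in SNEB at 16 wkpp, 488, 285 and 300.2 in MNEB at 1 wkpp, and 790, 344 and 1069 in MNEB at 16 wkpp. The 3 MNEB libraries at 16 wkpp spanned the ranges of the -4 wkpp and SNEB groups. IL11RA, which binds IL-11, had an exonic log2 fold change of 0.78 (SE 0.24, adjusted p = 0.0342) for -4 wkpp over MNEB at 1 wkpp, where the entire gene adjusted p-value was 0.154.

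Receptors of lymphocyte growth factors had fewer reads. IL7R, the IL-7 receptor chain of lymphocytes, had exonic reads of 51.4, 37.3 and 57.1 at -4 wkpp, 110, 89.7 and 82.4 in SNEB at 1 wkpp, and 67.2, 39.3 and 65.9 in SNEB at 16 wkpp. In MNEB it had 32.2, 40.3 and 43.9 at 1 wkpp and 30.3, 48.7 and 43.2 at 16 wkpp. The SNEB libraries at 1 wkpp were above all other libraries, and the exonic log2 fold change over MNEB at 1 wkpp was 1.35 (SE 0.39, adjusted p = 0.0446, entire gene adjusted p = 0.122). The values for -4 wkpp over SNEB at 1 wkpp and for SNEB at 1 over 16 wkpp were -0.99 (adjusted p = 0.129) and 0.72 (adjusted p = 0.682).

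IL21R, which binds the T cell cytokine IL-21, had exonic reads of 41.0, 32.4 and 34.6 at -4 wkpp, 15.7, 28.0 and 20.9 in SNEB at 1 wkpp, and 40.6, 48.5 and 69.2 in SNEB at 16 wkpp. In MNEB it had 23.9, 8.07 and 14.6 at 1 wkpp, where replicates 2 and 3 rest on 3 and 4 reads, and 27.4, 15.4 and 29.7 at 16 wkpp. The SNEB libraries at 1 wkpp were below those at 16 wkpp, with an exonic log2 fold change of -1.29 (SE 0.37, adjusted p = 0.682). T cell markers were few, with a summed level of 180 to 584 exonic reads over the 10 of 10 markers. At 16 wkpp the sums of MNEB (187 to 286) and SNEB (220 to 584) overlapped.

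IL10RA is the chain that binds the anti-inflammatory cytokine IL-10 and is known from leukocytes. Exonic reads of IL10RA were 166, 245 and 211 at -4 wkpp, 233, 295 and 223 in SNEB at 1 wkpp, and 233, 266 and 513 in SNEB at 16 wkpp. In MNEB they were 299, 121 and 205 at 1 wkpp and 84.0, 113 and 103 at 16 wkpp. The MNEB libraries at 16 wkpp were below every other library. For SNEB over MNEB at 16 wkpp the exonic log2 fold change was 1.73 (SE 0.41, adjusted p = 0.0161, entire gene adjusted p = 0.0340), and for MNEB at 1 over 16 wkpp it was 1.10 (SE 0.37, adjusted p = 0.287). The ligand IL10 had 4.30 to 49.9 exonic reads, and its values in the 3 MNEB libraries at 1 wkpp (49.9, 16.1 and 22.0) were above those at -4 wkpp (5.19, 11.0 and 14.0). IL10 reached the minimum on exons there only through MNEB, so no test is given. The values 16.1 and 22.0 rest on 6 reads each, in the libraries with many reads off exons.

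Whether SNEB and MNEB cows differed in how a member moved between 1 and 16 wkpp was tested over the 12 libraries after calving. The fit took these libraries as independent, although the study biopsied the same animals at both times. Of 30 members tested, 0 differed (0% of all 10329 genes tested were called), and limma-trend also called 0. Unadjusted exonic p-values below 0.05 were found for 4 members (IL1R1, IL10RA, IL1RL1 and IL4R) (13.3%) and for 510 of all genes (4.94%). On the entire gene 2 members were below an unadjusted 0.05, IL10RA and IL21R, so only IL10RA was below it in both analyses. The smallest exonic p-value was that of IL1R1, whose difference was 0.95 on the log2 scale (SE 0.26, adjusted p = 0.939), a higher ratio of 1 over 16 wkpp in SNEB.

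Marker sums of several cell types also separated MNEB from SNEB, though not every gene of a list went with its sum. Adipocyte markers (FABP4, PLIN1, LIPE, CIDEC and LEP, 5 of 7 in the tables) had summed exonic reads of 44079 to 54150 at -4 wkpp, 71229 to 86804 in SNEB at 1 wkpp and 41186 to 47702 in SNEB at 16 wkpp, with none of the 5 at 0. In MNEB the sums were 18326 to 55298 at 1 wkpp and 9169 to 38839 at 16 wkpp, below SNEB at the same time. CIDEC, a lipid droplet protein, and LEP, the hormone leptin, were called as higher at -4 wkpp than in MNEB at 1 wkpp (exonic log2 fold changes 2.37 and 3.85), where IL13RA1 and IL18 were called. LIPE, a lipase, went the other way there, with 3025 to 4249 reads at -4 wkpp and 4902 to 8313 in MNEB at 1 wkpp, and FABP4 overlapped (17728 to 23703 against 5242 to 35158). At 16 wkpp LEP was at 8.59 to 41.7 reads in SNEB and 35.9 to 153 in MNEB, against the direction of the sum. No adipocyte marker was called between SNEB and MNEB, with 4 of 5 below an unadjusted 0.05 at 1 wkpp (median log2 fold change 1.83) and 3 of 5 at 16 wkpp (1.11). The part of adipocytes in the members' values was not tested.

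Mast cell markers (CPA3, KIT, HDC, FCER1A and GATA2, 5 of 7 in the tables) had summed exonic reads of 3286 to 4882 at -4 wkpp, 1614 to 3604 in SNEB at 1 wkpp and 2424 to 2859 in SNEB at 16 wkpp. In MNEB the sums were 683 to 1292 at 1 wkpp and 810 to 1269 at 16 wkpp, and HDC and FCER1A were at 0 in at least 1 library of each MNEB group. GATA2, a transcription factor also found in endothelium, went against the list, with 406 to 961 reads in MNEB and 291 to 473 in the other libraries. KIT, the stem cell factor receptor, was called as higher at -4 wkpp than in MNEB at 1 wkpp (exonic log2 fold change 3.18) and as higher in SNEB than in MNEB at 16 wkpp (2.55), where CPA3 was called too (4.25). These are the comparisons in which IL13RA1, IL18 and IL1RL1 were called, and the part of mast cells in those results was not tested.

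Macrophage markers (CD68, CD163, CSF1R, CD14, AIF1 and MSR1, 6 of 7 in the tables) had summed exonic reads of 5401 to 7669 at -4 wkpp, 8036 to 12880 in SNEB at 1 wkpp, 10994 to 14435 in SNEB at 16 wkpp, 2087 to 7329 in MNEB at 1 wkpp and 2057 to 2396 in MNEB at 16 wkpp. None of the 6 was at 0 in any group's lowest library. At 16 wkpp, CD163, CSF1R and MSR1 were called as higher in SNEB, with exonic log2 fold changes of 3.31, 1.98 and 2.96. Lymphatic endothelial markers (5 of 6 in the tables) were at 2493 to 4739 in the -4 wkpp and SNEB libraries and at 397 to 937 in the MNEB libraries. LYVE1 was called as higher at -4 wkpp than in MNEB at 1 wkpp (3.03). At 16 wkpp LYVE1 (2.93) and MMRN1 (3.78) were called as higher in SNEB than in MNEB. LYVE1, MMRN1 and CCL21 made up most of the sum in the -4 wkpp and SNEB libraries, whereas PDPN and PROX1 did not separate -4 wkpp (90.7 to 125 and 171 to 254 reads) from MNEB at 1 wkpp (118 to 170 and 134 to 351). TNNT3, a muscle troponin, went the other way, with 1167 to 3924 reads in MNEB and 54.3 to 339 in the other libraries, while the muscle enzyme CKM had at most 4.89. TNNT3 was called as lower in SNEB than in MNEB at 16 wkpp (exonic log2 fold change -3.27). The muscle actin ACTA1 and the myosins MYH1, MYH2 and MYH7 were highest in MNEB at 1 wkpp, at up to 94.1, 51.3, 36.6 and 51.3 reads, against at most 15.0, 16.8, 12.2 and 22.4 in the -4 wkpp and SNEB libraries. Blood endothelial markers (6 of 6) also went the other way between -4 wkpp (19849 to 24295) and MNEB at 1 wkpp (30740 to 64371), with 0 of 6 called, and were at 30266 to 37365 in SNEB at 1 wkpp, 22784 to 26047 in SNEB at 16 wkpp and 24922 to 35183 in MNEB at 16 wkpp. The part of these cell types in the members' values was not tested.

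**Figure D4:**
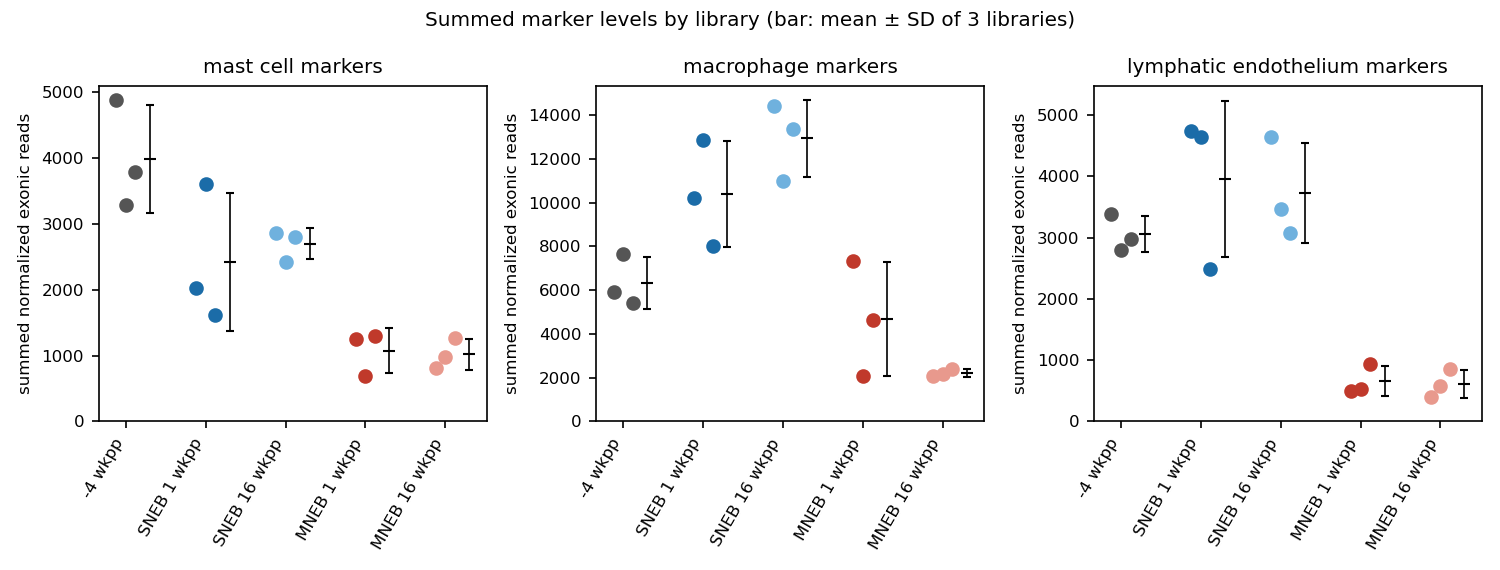
Summed normalized exonic reads of mast cell, macrophage and lymphatic endothelial markers, 1 point per library, with the mean and SD of the 3 libraries of a group. Mast cell and lymphatic markers are lower in the 6 MNEB libraries than in the other 9, and macrophage markers at 16 wkpp lie at 2057 to 2396 in MNEB against 10994 to 14435 in SNEB.

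Markers of the remaining cell types had few reads. Cytotoxic lymphocyte markers (5 of 5) had sums of 40.1 to 102 in MNEB and 123 to 427 in the other libraries. Neutrophil markers (5 of 6) had sums of 24.2 to 69.3 in MNEB and 31.3 to 494 elsewhere. B cell markers (3 of 5) had sums of 8.10 to 117 and keratinocyte markers (3 of 4) of 0 to 256, both with the highest sums in MNEB at 1 wkpp.

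Of the genes that take part in interleukin signalling but are not members, 3 of 49 tested between SNEB and MNEB at 16 wkpp were called (6.12%), beside 3.66% of all genes, and 0 were called in the other 5 comparisons. Of the JAK kinases and STAT factors, 9 of 11 were in the tables and tested, and 0 were called in any of the 6 comparisons, with 4 below an unadjusted 0.05 on exons in each comparison of MNEB with another group. The SOCS feedback inhibitors (7 of 10) and the IL-17 signalling adaptors (4 of 5) also had 0 called in all 6, with at most 2 below an unadjusted 0.05. Of 19 genes of IL-1 and Toll-like receptor signalling tested, 1 was called in 1 comparison: SIGIRR, an inhibitory receptor of the IL-1 family, was lower in SNEB than in MNEB at 16 wkpp (log2 fold change -1.41, SE 0.23, adjusted p = 0.00349 on exons and 0.00876 on the entire gene). Of the relatives with other names (10 of 16 in the tables), 7 were tested at 16 wkpp and 1 was called, EBI3, a subunit of IL-27, which was lower in SNEB (log2 fold change -1.91, SE 0.27, adjusted p = 0.00194 and 0.00615). Of the genes that process IL-1 family ligands (4 of 5), 3 were tested at 16 wkpp and 1 was called, the inflammasome sensor NLRP3, which was higher in SNEB (log2 fold change 2.28, SE 0.35, adjusted p = 0.00280 and 0.00895). The lists of relatives and of processing genes had 0 called in the other 5 comparisons.

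The members with few reads showed which libraries held reads off exons. Besides IL23R, 24 members had a mean below 10 exonic reads per library. Their summed entire gene reads were 3221 and 3339 (normalized) in replicates 2 and 3 of MNEB at 1 wkpp, 1347 in replicate 3 of -4 wkpp, 707 in replicate 1 of MNEB at 16 wkpp, and 264 to 525 in the other 11 libraries. Their exonic sums were 196 and 242 in the same MNEB libraries at 1 wkpp, 113 and 102 in the next 2, and 25.8 to 41.7 in the rest. The 3437 genes of the whole series below 10 exonic reads showed the same 4 libraries highest, with entire gene sums of 448244, 479852, 184661 and 94559 against 25336 to 74857. Several ligands without exonic reads in most libraries had their reads there. IL26 had 0 exonic reads in the median library and up to 14.6, and IL21 up to 18.3, which replicate 3 of MNEB at 1 wkpp decided with 5 reads. The origin of these reads was not tested.

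IL23R, which binds IL-23 and marks IL-17 producing lymphocytes, had a different pattern. Its exonic reads were at most 14 in any library before normalization. After normalization they were 10.4, 21.5 and 47.6 in MNEB at 1 wkpp, 3.46 to 13.1 at -4 wkpp, 2.80 to 6.54 in SNEB at 1 wkpp, 1.84 to 8.40 in SNEB at 16 wkpp and 0 to 4.89 in MNEB at 16 wkpp. On the entire gene its normalized reads were 69.9, 167 and 402 at -4 wkpp, 116, 127 and 355 in SNEB at 1 wkpp and 77.7, 83.4 and 193 in SNEB at 16 wkpp. In MNEB they were 1072, 1304 and 2698 at 1 wkpp and 783, 2908 and 5257 at 16 wkpp. All 6 MNEB libraries were above the other 9, and 98.6% of the reads over the 15 libraries lay outside exons. On the entire gene alone, IL23R was lower in SNEB than in MNEB at 16 wkpp, with a log2 fold change of -4.37 (SE 0.74, adjusted p = 0.00961), and the gene did not have enough exonic reads to be tested there. The entire gene log2 fold change was -3.21 (adjusted p = 0.0241) for -4 wkpp over MNEB at 1 wkpp and -3.12 (adjusted p = 0.0538) for SNEB over MNEB at 1 wkpp. In both of these comparisons it reached the minimum on exons, and so counts among the members tested, only through its reads in MNEB at 1 wkpp, and no exonic test is given. In the shallow MNEB libraries 2 and 3 at 16 wkpp, where the entire gene values were highest, it had 0 exonic reads. What these intronic reads represent was not tested.

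**Figure D5:**
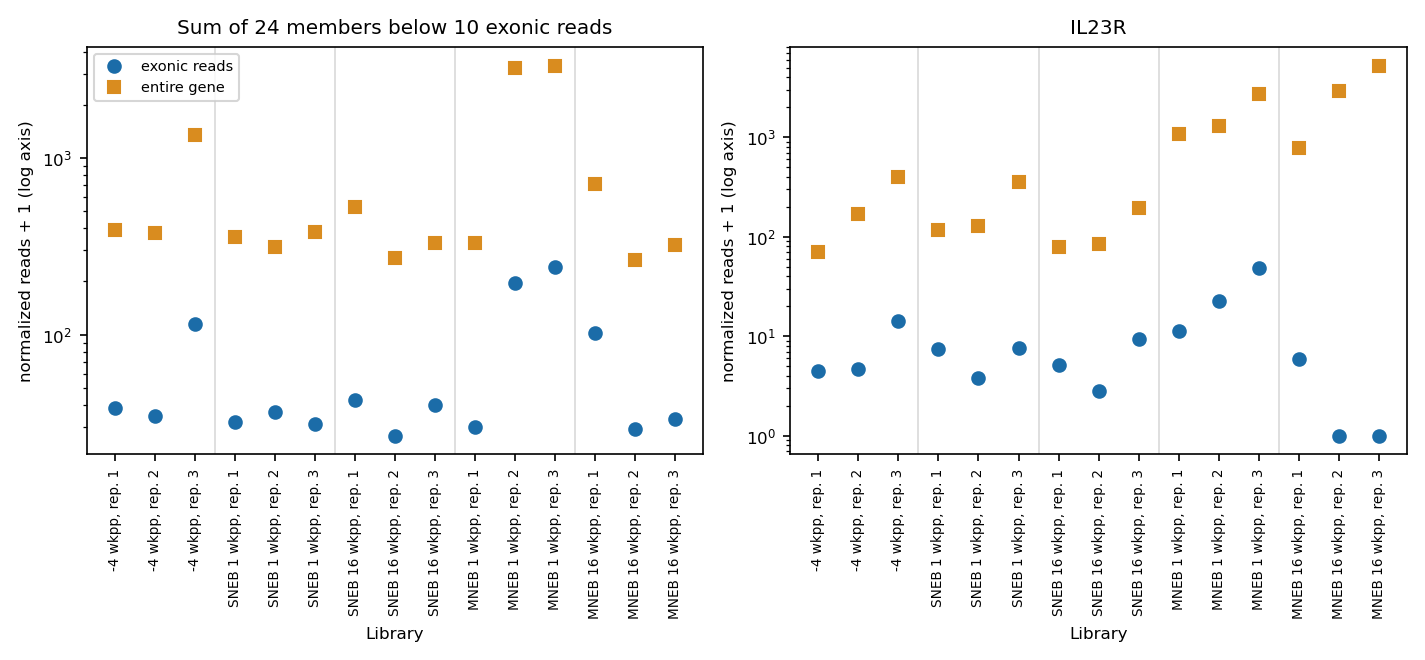
Normalized reads plus 1 (log axis) on exons and on the entire gene in each library, for the sum of 24 members below 10 mean exonic reads (left) and for IL23R (right). Replicates 2 and 3 of MNEB at 1 wkpp are highest on the left, at 3221 and 3339 entire gene reads, whereas all 6 MNEB libraries are high on the right.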

How the data were processed

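The authors trimmed stranded total RNA reads with cutadapt 1.3, aligned them with TopHat2 to bosTau8 and counted them with HTSeq on exons and on entire genes. The deposited signal used here is, per the authors' tables, the mean over 6 libraries of the counts divided by DESeq2 size factors. The authors' log2 fold changes, standard errors, test statistics and p-values were not used. No column belonged to other samples (0 columns).

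Because each library enters 2 or 3 tables, its whole counts were solved from the 6 deposited means of each gene by lattice reduction. This gave 13889 of 13896 genes on exons, 13886 on entire genes, and all 55 members. Size factors recomputed from these counts differed from the recovered ones by at most 0.0705%. Spike-ins were left out of all tests.

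Each comparison was fitted to its 6 libraries with limma 3.58.1 (voom) in R 4.3.3 on genes with a mean of at least 10. Levels used size factors over all 15 libraries. The p-values measure the spread between 3 libraries per group. Full values were given for members called, the 3 with the smallest exonic p-value in each comparison, the 6 with most reads, and the top member of each role. Other members with values are those the text singles out after their values were seen. Lists and members were chosen with earlier results of these data known. The solving of counts and the limma fit were each run on simulated data as a check of the code, and those outcomes are not given here. Alternatives are given in the closing section. Gene names and overlaps came from RefSeq (ARS-UCD2.0), a different assembly, so no coordinates are given. Figures used Python 3.11.15 and matplotlib 3.10.9.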

Additional observations from a re-analysis of the deposited data

How the results depend on the processing

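The 2 members called between -4 wkpp and MNEB at 1 wkpp became 0 with no filter on low counts, 0 to 1 when 1 library was left out, and 0 without both MNEB libraries of lowest depth at 1 wkpp, a setting chosen after seeing the data in which the lone library is assumed to vary like the other group. For SNEB and MNEB at 1 wkpp the 0 calls became 2 on exonic reads alone, 1 at an adjusted p-value below 0.05, 2 in the fit of all 15 libraries (IL13RA1 and IL1RL1), and 0 to 1 without 1 library, where the call was IL13RA1 without replicate 1 of MNEB. For SNEB and MNEB at 16 wkpp the 1 call became 3 on exonic reads alone, 2 on the entire gene alone, 4 at 0.05, 2 with total-count scaling, 0 with no filter and 0 without any 1 library. With no filter more genes enter the adjustment. In the fit of all 15 libraries the 1 call at 16 wkpp was IL13RA1 in place of IL1RL1. The other 3 comparisons and the difference in change over time had 0 calls under each alternative run. Over 189 refits of the fold changes of the named members, 0 reversed, 161 kept their side of the threshold, 23 lost it and 5 gained it. The cause of these shifts was not tested. Total-count scaling shifted the log2 scale of a comparison by at most 0.05 (mean of the scaling factors, group against group). No paired analysis was possible because the tables do not tie libraries to cows, so every fit took the libraries as independent. Depth limits the MNEB values at 1 wkpp, where IL18 rests on 14 to 29 reads. It also limits those of replicates 2 and 3 of MNEB at 16 wkpp. There IL18 rests on 17 and 18 reads and IL1RL1 on 46 and 73.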
